A study of Mus musculus with 4 samples.

Results

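Collagen genes were taken as all genes whose mm9 symbol is Col, a number, the letter a and a number. Of 43 such symbols in the annotation, 41 had exon blocks among the 20791 genes counted, and Col6a3 and Col6a5 were not analysed here. Tissue came from C57BL/6 mice, whose age the labels give as 9-10 without a unit and the methods of the study as weeks. Total small intestine and total colon were each sequenced as 1 cDNA fragmented library (polyadenylated RNA, SMART cDNA synthesis with oligo-dT priming and template switch) and as 1 rRNA-depleted library (RNA fragmentation and directional adaptor ligation), without any treatment. The methods name jejunum and distal colon as the pieces used and polyadenylated RNA also for an RNA fragmented protocol. The labels of the rRNA-depleted libraries give ribosomal RNA depletion instead. These libraries held 36419942 (small intestine) and 37466674 (colon) reads in total. The study lists other totals and a longer read for its RNA fragmented data, while its cDNA fragmented totals are the same as here. The rRNA-depleted reads are thus not the RNA fragmented reads of the study, and the methods of that protocol need not hold for them. No group was replicated within a protocol, and which mouse stands behind which library is not given in the labels.

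Collagens are extracellular proteins made of 3 chains wound into a triple helix, and each chain is built of Gly-X-Y triplets that begin with glycine. Fibrillar collagens of types I, III and V bear the tensile load of the submucosa and the muscle coat, collagen IV forms the network of basement membranes under epithelium and around vessels and muscle cells, and collagen VI forms beaded filaments between both. In the gut wall most collagen is made by fibroblasts and smooth muscle cells, so a whole-tissue library reads them beside a large excess of epithelial RNA.

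The repeat is visible in the exons to which the reads were matched. The 41 genes had 1926 exon blocks with a median length of 63 bases, against 135 bases for the 197264 blocks of all other named genes. Blocks of exactly 54 bases, which encode 6 Gly-X-Y triplets, made up 24.0% of collagen blocks and 0.345% of the others. Glycine codons begin with GG, and the letters GG stood at base 1 and at every ninth base after it in 446 of the 462 collagen blocks of 54 bases (96.5%). None of the 681 blocks of 54 bases in other genes carried this series from its first base, and 5 carried it in any of the 9 phases. Both strands were not searched, since each block was read on the strand of its gene. Exons from a fibrillar collagen of either type, a collagen VI and a collagen IV gene show the pattern. Of the 54-base blocks of a gene with the repeat, the one with the most reads is given, on the gene's strand, from the mm9 genome, with the GG of each glycine codon in capitals.

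Col3a1, block 10 of 51, chr1:45384655-45384708, plus strand: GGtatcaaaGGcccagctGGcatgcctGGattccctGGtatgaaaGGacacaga
Col1a2, block 33 of 52, chr6:4479068-4479121, plus strand: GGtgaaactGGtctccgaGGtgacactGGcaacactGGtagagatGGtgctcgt
Col1a1, block 20 of 51, chr11:94803874-94803927, plus strand: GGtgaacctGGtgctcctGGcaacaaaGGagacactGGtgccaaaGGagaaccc
Col6a2, block 6 of 28, chr10:76074693-76074746, minus strand: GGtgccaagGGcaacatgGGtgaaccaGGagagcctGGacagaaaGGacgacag
Col4a1, block 17 of 52, chr8:11238998-11239051, minus strand: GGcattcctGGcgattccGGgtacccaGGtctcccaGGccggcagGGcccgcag

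Such exons hold few reads. A read of 35 colors fits inside a block of 54 bases at 20 positions only, and 97 collagen blocks (5.04%) were shorter than a read. With cDNA fragmentation the Col3a1 exon held 1 read in small intestine and 12 in colon, and with rRNA depletion it held 2 and 5. Col6a2 had 0 and 0, then 4 and 10 reads on its exon, while the exon of Col4a1 had none in any library. Over whole genes, 73.4% of collagen exon bases could be the start of a read lying inside its block, against 88.6% in other genes, and the share ran from 54.7% for Col16a1 to 97.3% for Col8a1, which has 4 blocks. Levels per exonic base therefore leave out part of genes with many short exons. Placements across junctions made up 0.509% and 0.717% of collagen reads in the cDNA fragmented libraries and 2.03% and 2.39% in the rRNA-depleted ones, and 86.1% to 90.2% of all junction placements carried 3 mismatches, so splicing between the short exons was not examined.

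**Figure D1:**
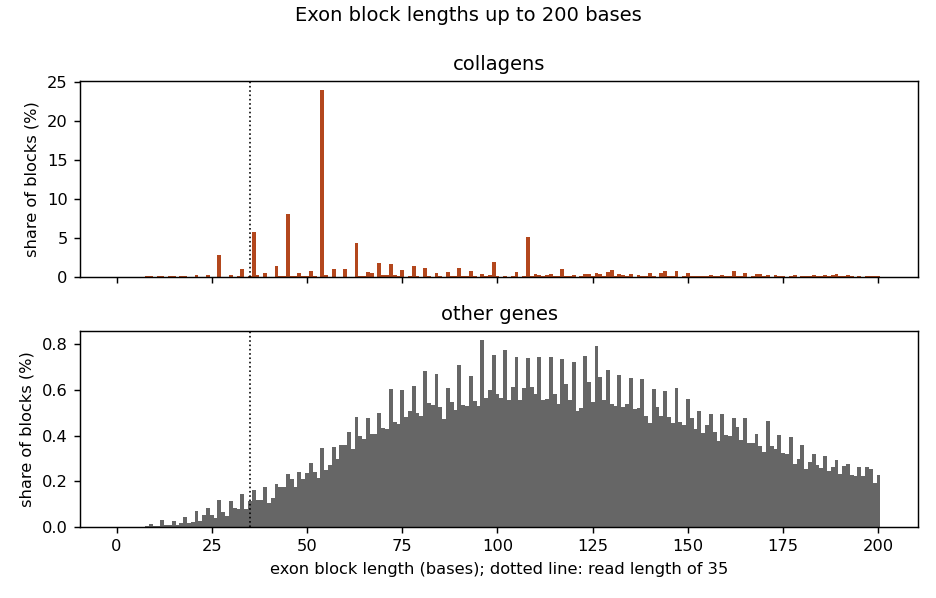
Share of exon blocks (%) by block length in bases up to 200, for collagen genes (top) and other genes (bottom), with separate vertical scales; the dotted line marks the read length of 35. The collagen bar at 54 bases reaches 24.0%, and the other tall bars stand at other multiples of 9 bases such as 36, 45 and 63.

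Depth differed between the protocols by about an order of magnitude. Uniquely placed reads were 22484041 for small intestine and 24798934 for colon with cDNA fragmentation, and 2035386 and 3478387 with rRNA depletion. Sense reads were 48.2% to 48.3% of exon reads in the cDNA fragmented libraries and 98.5% in both rRNA-depleted ones, so only the latter tell strands apart. Intestinal epithelium was checked on 9 markers, none of which was at 0 in any library. Krt20, an enterocyte keratin, was read at 7588 and 2523 RPKM (reads per 1000 exonic bases and 1000000 uniquely placed reads) in cDNA fragmented small intestine and colon and at 657 and 117 RPKM after rRNA depletion. Krt19 went the other way, being 3.30-fold and 3.26-fold higher in colon, so these markers show epithelium in each library and do not by themselves tell the tissues apart. Pancreatic acinar transcripts did not follow the tissue labels: their 8 genes summed to 18.8 RPKM in small intestine and 1036 in colon with cDNA fragmentation, and to 3364 and 302 RPKM with rRNA depletion.

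Collagens together took 0.0183% (small intestine) and 0.0326% (colon) of the reads with cDNA fragmentation, and 0.0606% and 0.0962% in the rRNA-depleted libraries, from 4123, 8090, 1234 and 3346 reads. Following the study, presence of a gene meant more than 0.01 RPKM and 2 or more start points. By this rule 30, 35, 26 and 29 of the 41 collagens were present, 23 in all 4 libraries and 3 in none. At least 20 reads in each library were reached by 14 members. Values are given below in the order small intestine and colon with cDNA fragmentation, then small intestine and colon with rRNA depletion. Every interval is a 95% interval that covers counting error only and treats reads as independent. Reads often shared a start point, as for Col3a1 with 859, 1939, 218 and 750 reads on 656, 1128, 128 and 346 start points. Such intervals can be too narrow, also where a ratio is said to lie beyond counting error.

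Among fibrillar collagens, Col3a1 (chr1:45368383-45406550, 51 blocks), which encodes the homotrimer of extensible tissues, had the highest whole-length RPKM of any collagen in each library, although in cDNA fragmented small intestine its ratio to Col1a2 of 1.10 (0.999 to 1.22) lay within counting error of 1. Its level was 6.87, 14.1, 19.3 and 38.8 RPKM (859, 1939, 218 and 750 reads). Colon exceeded small intestine in both protocols, 2.05-fold (1.89 to 2.22) and 2.01-fold (1.73 to 2.35), and rRNA depletion gave the higher value in both tissues. Col1a2, the α2 chain of collagen I, had 6.22, 10.9, 7.36 and 9.56 RPKM. Its partner Col1a1, the α1 chain, was read at 1.40, 2.38, 6.38 and 6.49 RPKM, so that the colon value was 1.70-fold higher (1.38 to 2.09) with cDNA fragmentation, while the ratio of 1.02 (0.735 to 1.42) with rRNA depletion lay within counting error of 1. Collagen V, which nucleates collagen I fibrils, was lower. Col5a1 reached 0.307, 0.730, 2.16 and 2.94 RPKM and Col5a2 0.753, 1.79, 1.11 and 2.0 RPKM. Colon was 2.38-fold higher for both with cDNA fragmentation (1.74 to 3.27 and 1.91 to 2.99), while with rRNA depletion the ratios of 1.36 (0.915 to 2.06) and 1.79 (0.984 to 3.46) lay within counting error of 1. The remaining fibrillar genes did not exceed 0.644 RPKM in any library: Col27a1 and Col5a3 had between 1 and 72 reads, and Col2a1, Col11a1, Col11a2 and Col24a1, of which the first 3 are known from cartilage, had at most 11.

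Collagen IV was led by the ubiquitous pair Col4a1 and Col4a2, which lie head to head on chromosome 8. Col4a1 was read at 2.39, 5.07, 11.4 and 12.3 RPKM and Col4a2 at 1.38, 3.10, 7.65 and 17.5 RPKM. With rRNA depletion the pair parted. Col4a2 was 2.29-fold higher in colon (1.84 to 2.89), close to its 2.24-fold (1.90 to 2.65) with cDNA fragmentation, whereas Col4a1 was 2.12-fold higher (1.87 to 2.41) with cDNA fragmentation and its ratio was 1.07 (0.877 to 1.31) with rRNA depletion. Col4a5 and Col4a6, the X-linked chains that also accompany smooth muscle, were low but higher in every colon library: Col4a5 had 0.164, 0.665, 1.67 and 3.63 RPKM, and Col4a6 had 22, 68, 6 and 28 reads. Col4a3, known from specialised basement membranes such as that of the kidney glomerulus, was the opposite case. It had 1.02, 0.417, 0.571 and 0.134 RPKM (197, 89, 10 and 4 reads), small intestine being 2.44-fold (1.89 to 3.17) and 4.27-fold (1.23 to 18.7) above colon. Of its 10 rRNA-depleted small intestine reads 7 were antisense, 6 of them on the last block, and the Col4a3 exons at that end lie within the span of C430014B12Rik on the other strand, so the cDNA fragmented reads, which carry no strand, cannot be given to Col4a3 with certainty. Without antisense reads 3 remained in each rRNA-depleted library, and the ratio of 1.71 (0.229 to 12.8) lay within counting error of 1. Its head-to-head neighbour Col4a4 had 11, 14, 8 and 0 reads.

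Collagen VI was read mainly as Col6a1 and Col6a2. Col6a1 had 5.38, 8.82, 11.6 and 14.5 RPKM, and its tissue ratio was 1.64 (1.47 to 1.84) with cDNA fragmentation and 1.25 (0.975 to 1.62) with rRNA depletion. Levels of Col6a2 were 2.47, 3.22, 7.77 and 16.9 RPKM, with ratios of 1.31 (1.09 to 1.57) and 2.17 (1.62 to 2.95). The α4 chain Col6a4 went the other way: its 0.347, 0.260, 4.89 and 0.966 RPKM (58, 48, 74 and 25 reads) put small intestine 1.33-fold (0.893 to 2.0) and 5.06-fold (3.18 to 8.31) above colon. Col6a6 was seen in 2 reads of 1 library.

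FACIT collagens, which sit on the surface of fibrils, were low with cDNA fragmentation. Those with the most reads, Col12a1 and Col14a1, were higher with rRNA depletion in both tissues. Col12a1, known from tissues under load, had 0.229, 0.498, 1.73 and 5.77 RPKM, and colon was 2.18-fold (1.60 to 2.99) and 3.34-fold (2.39 to 4.78) higher. Col14a1, often used as a fibroblast marker, had 0.490, 0.338, 5.94 and 6.06 RPKM, and small intestine was the higher library with cDNA fragmentation only. Col16a1 had 9, 24, 9 and 45 reads and Col19a1 13, 50, 1 and 3, of which the most frequent start point of Col19a1 alone held 30.8% and 32.0% in the cDNA fragmented libraries. Col20a1 stayed at or below 14 reads, and Col9a1, Col9a2, Col9a3 and Col22a1 at or below 3.

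Both multiplexins, proteoglycan-like collagens of basement membrane zones, were present in all libraries. Col18a1, whose C-terminal fragment is endostatin, had 0.922, 1.15, 5.51 and 6.30 RPKM, and the tissues did not differ beyond counting error in either protocol (1.25-fold, 0.979 to 1.59, and 1.14-fold, 0.841 to 1.57). Col15a1 had 0.117, 0.417, 2.68 and 7.51 RPKM (14, 55, 29 and 139 reads), colon being 3.56-fold (1.95 to 6.94) and 2.80-fold (1.87 to 4.34) higher.

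The clearest tissue differences were found outside these abundant classes. Col8a1, a short-chain network collagen known from vessel walls, had 0.165, 2.04, 0.385 and 6.81 RPKM (19, 259, 4 and 121 reads). Both colon libraries stood far above both small intestine libraries, 12.4-fold (7.76 to 20.9) and 17.7-fold (6.74 to 66.0), although a single start point held 28.9% of the rRNA-depleted colon reads. Col28a1, described at nerve sheaths, had 5, 81, 1 and 19 reads and was 14.7-fold (6.04 to 46.5) and 11.1-fold (1.77 to 462) higher in colon. The partner chain Col8a2 had 32, 38, 5 and 20 reads without a difference beyond counting error. Col10a1, known from hypertrophic cartilage, had 0 and 1 cDNA fragmented reads. All of its 10 rRNA-depleted small intestine reads and 8 of the 10 in colon were antisense, and these exons lie within the span of Nt5dc1 on the other strand.

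Transmembrane collagens were represented by Col23a1, which was read at 2.12, 1.30, 2.95 and 2.18 RPKM. Small intestine was 1.64-fold (1.35 to 1.99) higher with cDNA fragmentation and 1.35-fold (0.836 to 2.17) with rRNA depletion. Col13a1, Col17a1 and Col25a1 had at most 3 reads in a library, and Col7a1, the anchoring fibril collagen of stratified epithelia, had at most 5. Col17a1 had no read in cDNA fragmented small intestine, where a floor of 3 reads corresponds to 0.0246 RPKM.

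**Figure D2:**
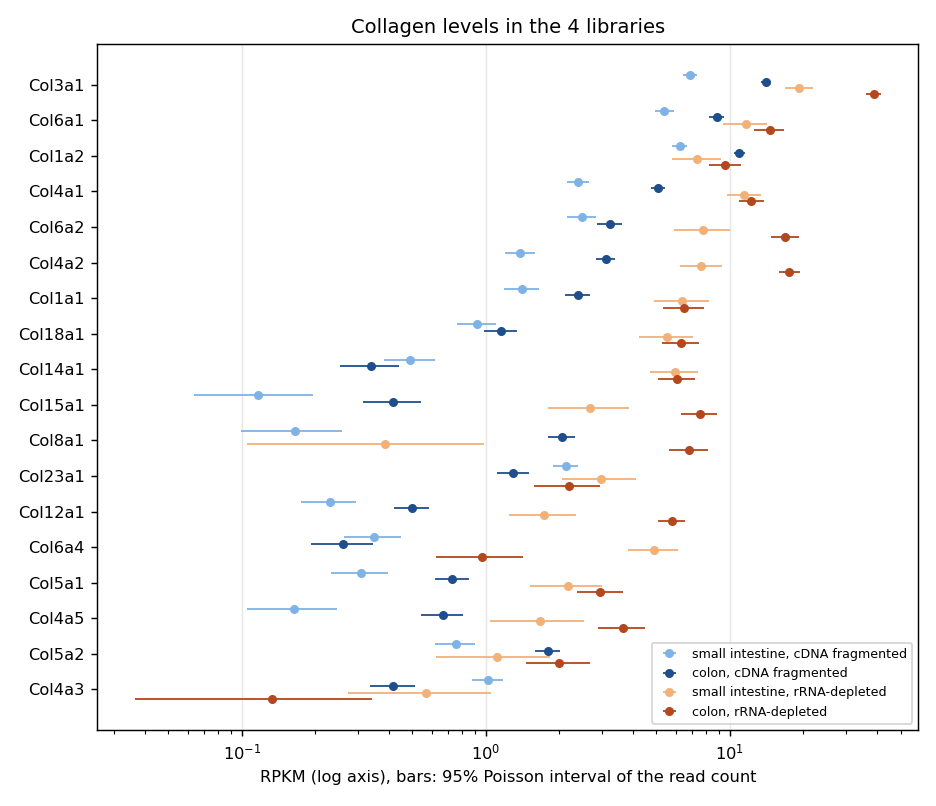
RPKM on a log axis for the 18 collagens with at least 20 reads in every library or 100 in 1 of them, ordered by mean level; points are the 4 libraries and bars the 95% Poisson interval of the read count. Col3a1 has the highest point in each library, and the Col8a1 points of colon lie to the right of those of small intestine in both protocols.

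To compare the tissues over all collagens, ratios were set beside those of all genes, whose log2 ratio (colon over small intestine) had a median of 0.39 with cDNA fragmentation (15140 genes) and 0.34 with rRNA depletion (13115 genes). The 28 and 24 collagens present in both tissues had medians of 1.06 and 0.41, with 24 and 19 ratios above 0. Of the 19 collagens with at least 20 reads in both cDNA fragmented libraries, 13 had an interval above a ratio of 1 and 3 an interval below it, where 53.9% and 26.3% of all such genes had. With rRNA depletion 6 of 15 lay above and 1 below, against 42% and 25.3% of all genes. In the rRNA-depleted pair the share of collagens with an interval above 1 was thus close to that of all genes. Whatever the interval, 15 of these 19 and 13 of these 15 collagens had a log2 ratio above 0, beside 65.0% and 59.9% of all such genes. Fewer, 13 of these 19 and 9 of these 15, lay above the median log2 ratio of all such genes, which was 0.33 and 0.24. The 3-fold rule of the study, which adds 1 RPKM to the divisor, called no collagen in either direction with cDNA fragmentation, where 3.26% of genes were called higher in colon and 2.82% higher in small intestine. With rRNA depletion it called Col8a1 higher in colon and none higher in small intestine, against 6.45% and 3.86% of genes. Of the 28 collagens present in both cDNA fragmented libraries 19 lay below 1 RPKM in small intestine and 17 in colon, so that the added 1 RPKM limits which can be called. The penalised ratio of Col8a1 was 1.75 with cDNA fragmentation and 4.92 with rRNA depletion.

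**Figure D3:**
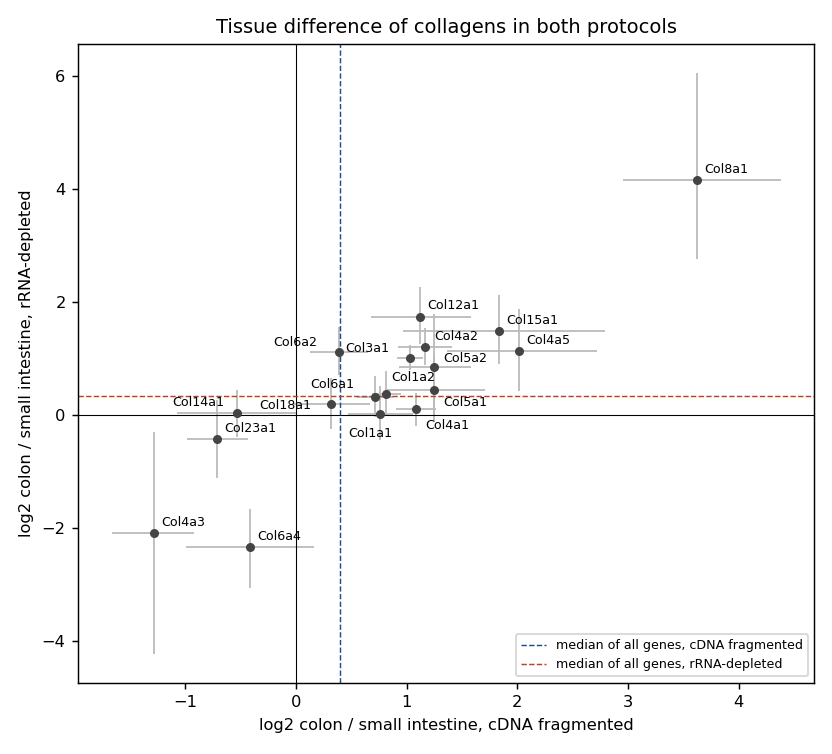
Log2 ratio of colon to small intestine with cDNA fragmentation (horizontal) and rRNA depletion (vertical) for the same 18 collagens, with 95% counting intervals; dashed lines mark the median of all genes. Col8a1 stands apart at the top right, and Col4a3, Col6a4 and Col23a1 lie below 0 on both axes.

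The 2 pairs of libraries were also joined in 1 linear model with terms for protocol and tissue (limma voom, 1 residual degree of freedom, 14163 genes). Of the 27 collagens tested, 2 rose in colon at an adjusted p under 0.05 and none in small intestine, where 6.84% and 6.82% of all genes were called. Col8a1 was higher by 3.47 on the log2 scale (SE 0.63, limma adjusted p = 0.000366), and Col28a1 by 3.17 (SE 0.80, limma adjusted p = 0.00818). Col28a1 passed the filter on low values only through the colon libraries, where it is high, and without the filter its limma adjusted p was 0.0360. At an unadjusted p under 0.05 there were 9 collagens of 27, beside 25.8% of all genes, and without the filter 9 of 41, beside 20.8%. Col5a3, among the 9, also passed the filter only through the colon libraries. Col4a3 had a difference of -1.70 (SE 0.57) that missed the threshold with a limma adjusted p of 0.0525, and Col6a4 one of -1.62 (SE 0.60, limma adjusted p = 0.0757). For Col3a1 the difference was 0.74 (SE 0.38, limma adjusted p = 0.222). The median over collagens was 0.61 and over all genes 0.10, with 21 of 27 collagens above 0. Without the filter the median over 41 collagens was 0.53, with 29 above 0. With 1 residual degree of freedom, limma draws the spread of each gene largely from all genes tested. The SE and p of a collagen are thus not its own spread. What enters is the spread between 2 protocols and unknown mice and not that between animals.

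Tissue ratios of single chains differed between the protocols by more than counting error for 3 of the 14 deeply read members. These were Col4a1, Col6a2 and Col6a4, while 51.2% of the 8244 genes with at least 20 reads in every library differed so. Whether intervals come apart depends on read number, for which genes and collagens were not matched. The ratio of partner chains depended on the protocol as well. Collagen I protein contains 2 α1(I) chains for 1 α2(I) chain, whereas the values here are RNA levels and do not give chain numbers. The RPKM ratio of Col1a1 to Col1a2 was 0.225 (0.188 to 0.269) and 0.218 (0.191 to 0.248) with cDNA fragmentation. With rRNA depletion this ratio was 0.867 (0.609 to 1.23) and 0.679 (0.527 to 0.870). Col4a1 exceeded Col4a2 1.72-fold, 1.63-fold and 1.5-fold in the first 3 libraries, and the ratio was 0.699 (0.597 to 0.816) in rRNA-depleted colon. Col6a1 over Col6a2 was 2.18, 2.74, 1.49 and 0.861 (0.707 to 1.05), the last lying within counting error of 1. Counted on the last 1000 bases alone, several of these ratios were different. Col1a1 over Col1a2 was 0.277, 0.328, 1.93 (0.976 to 3.98) and 1.31 (0.898 to 1.91), Col4a1 over Col4a2 was 1.21 (0.986 to 1.48), 0.959, 0.875 and 0.385, and Col6a1 over Col6a2 in rRNA-depleted colon was 1.10 (0.805 to 1.49).

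Coverage along the 5'-3' axis was compared between the protocols for these long transcripts. With cDNA fragmentation the reads of collagens lay mainly on the 3' side. The 5' side is taken as the first 50% of the exonic length, and the median share of a gene's exon reads on it was 1.66% over 19 collagens in small intestine and 2.50% over 25 in colon, whereas rRNA depletion gave 50% over 15 and 39.5% over 20. Among other genes longer than 5000 bases the medians were 22.7% and 20.6%, then 49.0% and 49.1%. Of the collagens read, 15 of 19 and 20 of 25 had less than 10% of their cDNA fragmented reads in the 5' side, against 22.9% and 24.5% of the other long genes. The collagens over 5000 bases alone had medians of 3.33% and 4.17%.

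Single members show how steep the gradient was. Not 1 of 353 Col4a1 reads in cDNA fragmented small intestine lay in the 5' side (0 to 1.08%) and 3 of 829 did in colon, against 39.2% and 30.4% with rRNA depletion. For Col1a1, 96.6% and 95.6% of the cDNA fragmented reads fell on the last 1000 bases, against 44.3% and 64.8%. Col3a1 had 5.78% (4.40 to 7.56) and 6.82% (5.77 to 8.04) in the 5' side, then 51.4% (44.7 to 58.1) and 39.7% (36.2 to 43.3). Above 10% with cDNA fragmentation lay Col14a1 (12.7% and 28.3%), Col4a5 (12.5% and 18.7%) and Col4a6 (18.2% and 16.4%) in both tissues, Col6a4 (12.1%) in small intestine, and Col23a1 (11.5%) and Col8a1 (14.3%) in colon. In colon Col8a1 had low shares on the 5' side in either protocol, 14.3% (10.5 to 19.1) and 8.26% (4.55 to 14.5). Counting intervals of the 5' side share were apart between the protocols, with cDNA fragmentation lower, for 14 of 14 collagens in small intestine and 17 of 20 in colon, against 69.9% and 72.1% of other genes over 5000 bases. Intervals of Col4a5, Col4a6 and Col8a1 overlapped in colon.

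**Figure D4:**
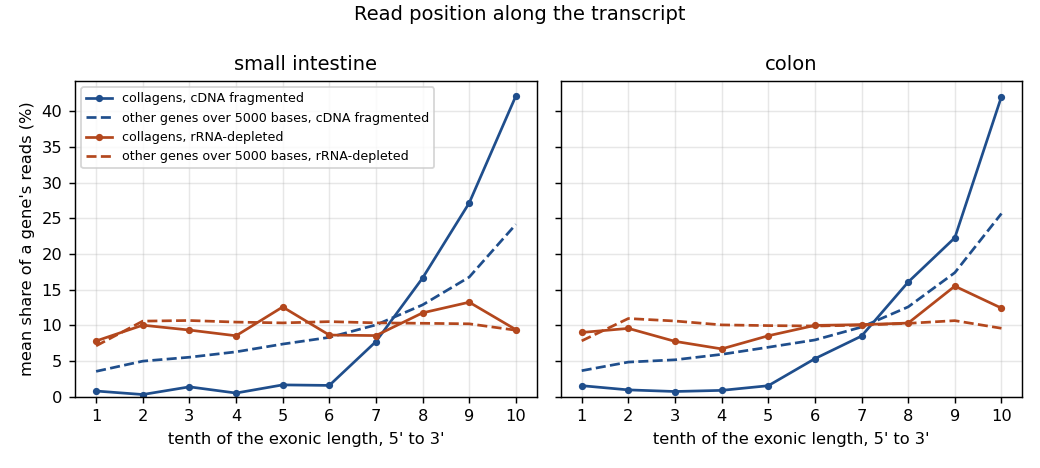
Mean share of a gene's exon reads (%) in each 10% of the exonic length from 5' to 3', in small intestine (left) and colon (right), for collagens (solid) and other genes over 5000 bases (dashed) with at least 20 reads. The last 10% holds 42.2% and 42.1% of cDNA fragmented collagen reads and 9.41% and 12.4% after rRNA depletion.

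**Figure D5:**
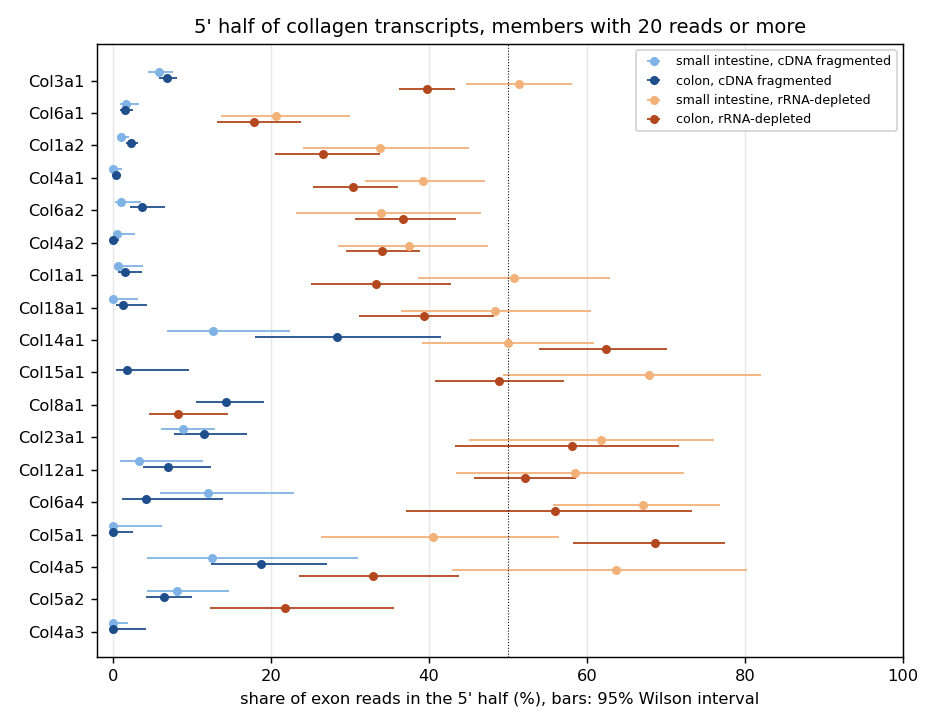
Share of exon reads in the 5' side (%) with 95% Wilson intervals for collagens with at least 20 exon reads in a library; the dotted line marks 50%. All cDNA fragmented points but that of Col14a1 in colon lie below 20%, and the rRNA-depleted point of the same tissue lies to the right for each member with both except Col8a1.

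Within the rRNA-depleted protocol the 5' side was also read less in colon than in small intestine for 12 of 15 collagens (median difference -7.16 percentage points), while this held for 49.1% of 1846 other long genes with a median difference of 0.13 points. With cDNA fragmentation the 5' side was read less in colon for 6 of 19 collagens (median difference 0.36 points), beside 56.0% of the other long genes. From the last 1000 bases alone, the tissue ratio of the rRNA-depleted libraries was larger than over the whole length for 11 of 14 collagens and smaller for Col12a1, Col14a1 and Col6a2. The log2 ratio of Col3a1 was 2.06 there against 1.01 over the whole length, and that of Col4a2 was 2.20 against 1.20. On the last 1000 bases the 3-fold rule called 6 of 24 collagens higher in rRNA-depleted colon. The share of all genes called rose from 6.45% over the whole length to 12.0%. RPKM was recalculated there over at most 1000 bases and the reads on them, while the added 1 RPKM was kept. The added value thus weighs differently than over the whole length, and its part in these calls was not tested. The 6 were Col15a1, Col16a1, Col3a1, Col4a2, Col4a5 and Col8a1, and some rest on few reads. Small intestine had 17 reads there for Col3a1, 16 for Col4a2, 5 for Col15a1 and 1 for Col4a5. In the cDNA fragmented pair the ratio was smaller for 17 of 19 collagens, and the same restriction gave 0.48 in place of 1.03 for Col3a1. How often the ratios of other genes moved in the same direction was not counted for either pair.

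Short exons away from the 3' end were read less densely with cDNA fragmentation. On exons of 35 to 110 bases, counted per position at which a read fits, the density relative to the last block had a median of 0.00590 and 0.0274 over the 14 deeply read collagens with cDNA fragmentation, and its interval lay below 1 for all 14 in both tissues, as it did in 62.4% and 67.1% of other genes over 5000 bases. With rRNA depletion 1 of 14 and 5 of 13 lay below 1, beside 7.09% and 9.29%, and the medians were 0.996 and 0.747 (13 members in colon, since Col6a4 had no read on its last block), and other genes over 5000 bases had 0.372, 0.326, 1.19 and 1.23. The short exons of Col3a1 were covered at 0.113 and 0.174 of the density of its last block with cDNA fragmentation and at 1.95 and 0.988 with rRNA depletion.

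Levels followed the same division. RPKM was higher with rRNA depletion for 14 of 14 collagens in small intestine and 19 of 20 in colon, with median log2 differences of 2.36 and 1.90. Over all genes the medians were 0.67 and 0.71, and over genes longer than 5000 bases 1.57 and 1.60. Most genes were thus higher with rRNA depletion as well, and their exact share was not counted. The span among collagens was wide. Col14a1 was 12.1-fold and 18-fold higher with rRNA depletion, whereas the ratio of Col1a2 was 1.18 and 0.875. Among members with fewer reads, Col15a1 (14 reads in cDNA fragmented small intestine) was 22.9-fold and 18-fold higher, and Col4a3 (10 and 4 rRNA-depleted reads) had ratios of 0.561 and 0.320. An order of collagens by level therefore depends on the protocol, and also on the part of the transcript counted. On the last 1000 bases Col3a1 over Col1a2 was 0.571 (0.493 to 0.661) and 0.605 (0.539 to 0.678) with cDNA fragmentation, against 1.10 (0.999 to 1.22) and 1.29 (1.20 to 1.38) over the whole length. Col5a1 over Col5a2 was 1.5 (0.684 to 3.41) and 1.26 (0.704 to 2.28) there, against 0.408 and 0.407.

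Genes that make, cut, cross-link, bind and degrade collagen were counted in the same model, in which 6.84% of all genes were called higher in colon and 6.82% in small intestine. Of 16 hydroxylases and chaperones, P4ha1 and P4ha2, catalytic subunits of prolyl 4-hydroxylase, rose in colon (by 1.53 and 1.88 on the log2 scale, limma adjusted p = 0.0440 and 0.0434), and P4hb, the shared disulfide isomerase subunit, fell by 1.77 (limma adjusted p = 0.00104). With 126, 415, 0 and 22 reads, P4ha2 reached the 2 libraries that the filter asks for only with a colon library. The highest levels in this list belonged to P4hb, with 375, 146, 385 and 126 RPKM, and Ppib, a prolyl isomerase, with 215, 242, 62.5 and 146 RPKM. Among 12 procollagen proteinases and cross-linking enzymes, Pcolce (4.74, 14.6, 1.92 and 10.5 RPKM), the enhancer of the C-proteinase, and the lysyl oxidase Loxl1 rose in colon (limma adjusted p = 0.0435 and 0.0284). Loxl1 had 8, 53, 2 and 38 reads and likewise reached the 2 libraries of the filter only with a colon library. Loxl2, the second highest of that list by mean over the 4 libraries, had 1.79, 2.62, 3.13 and 14.4 RPKM without passing. Small leucine-rich proteoglycans were called once in 7, for Ogn, while decorin (Dcn) had 187, 207, 22.3 and 144 RPKM and biglycan (Bgn) 30.8, 33.2, 22.6 and 33.2 RPKM. None of 7 collagen receptors passed. The highest by mean over the 4 libraries were Itgb1 with 35.3, 35.9, 82.1 and 200.9 RPKM and Ddr1 with 1.57, 4.02, 16.9 and 27.4 RPKM. In the cDNA fragmented libraries Ddr2 lay above Ddr1, with 2.86 and 4.66 RPKM. Of 9 degrading proteases and inhibitors, the inhibitors Timp2 and Timp4 rose in colon. Timp4 had 1, 39, 0 and 6 reads and passed the filter only through the colon libraries. Timp3 had 20.3, 19.8, 9.66 and 43.5 RPKM and Timp2 4.92, 10.7, 5.15 and 34.4 RPKM. Of 15 basement membrane partners, 1 was called, a share near that of all genes: the laminin chain Lamb3 rose in colon (1.11, 6.72, 8.24 and 54.4 RPKM), and Sparc, a collagen-binding glycoprotein, had 55.8, 98.0, 18.8 and 65.5 RPKM. Median log2 differences of these 6 lists, in the order given, were 0.88, 0.86, 0.92, 0.62, 0.63 and 0.21, beside 0.10 over all genes.

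Markers of cell types were counted in the same way. Of 9 smooth muscle markers 7 were called higher in colon by limma and none in small intestine, against the 6.84% and 6.82% of all genes, with a median log2 difference of 1.80. Their summed level was 365 and 1338 RPKM with cDNA fragmentation and 309 and 2577 RPKM with rRNA depletion, none being at 0 in any library. The 9 fibroblast markers, of which 1 (Dpt) was called higher in colon, summed to 300 and 394 RPKM, then 51.0 and 268 RPKM, and Col14a1 is one of them. Tagln had 86.4, 446, 50.2 and 652 RPKM and Actg2 80.6, 341, 45.2 and 674 RPKM, the highest means over the 4 libraries among smooth muscle markers. Dpt, with Dcn the highest fibroblast marker by mean over the 4 libraries, had 70.9, 146, 5.41 and 58.3 RPKM. In rRNA-depleted small intestine Col14a1 lay above it, with 5.94 RPKM. The leading genes of the other lists are given by mean over the 4 libraries, an order that single libraries need not share. They were Krt20 and Krt19 for epithelium, Pecam1 and Emcn for endothelium, Uchl1 for neurons and glia, and Cd79a and Ptprc for leukocytes. For adipocytes they were Cfd and Cidec, for mesothelium Upk1b and Msln, and for acinar cells Cela1 and Cela2a. Cfd, an adipocyte complement factor, had 11.7, 118, 10.6 and 118 RPKM, while Cidec, a lipid droplet protein, had 31.9, 27.5, 11.5 and 14.9 RPKM. Krt19 had 273, 899.6, 847 and 2766 RPKM. Calls higher in colon numbered 2 of 7 for enteric neurons and glia, 2 of 5 for adipocytes and 1 of 9 for epithelium, and calls higher in small intestine 2 of 9 for epithelium and 2 of 6 for leukocytes. Of the neuron and glia calls, the glial filament gene Gfap had 3, 40, 1 and 13 reads and passed the filter only through the colon libraries. Endothelial, mesothelial and pancreatic acinar lists had no call. Median log2 differences were 0.71 for fibroblasts, 1.07 for neurons and glia, 1.49 for adipocytes, -0.42 for epithelium, -1.01 for leukocytes, -0.08 for endothelium, 0.25 for mesothelium and -0.38 for acinar genes. The part of these markers in the collagen differences was not tested, and more collagen-making cells and more collagen RNA per cell cannot be told apart in whole tissue.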

How the data were processed

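The authors deposited read placements, not normalized values: position, strand and color mismatches of each read, with reports of read numbers and tables of exons and junctions. They matched 35 colors per read to RefSeq exons and junctions of mm9 with up to 3 mismatches and kept unique placements. The labels name SOLiD V2 kits for all libraries. Exon blocks were named through GENCODE M1 (NCBIM37) by overlap, and a read placed on an exon counted for the block that holds its middle base. Positions along the transcript were also taken at the middle base. The deposited reports give the same numbers of start points. Strand was used in the rRNA-depleted libraries only for antisense reads, and levels hold both strands. RPKM was calculated per library, with 95% intervals that were Wilson for shares, exact Poisson for read numbers and exact conditional binomial for ratios. The tissue effect was fitted with limma 3.58.1 (voom, TMM scaling, terms for protocol and tissue, Benjamini-Hochberg adjustment) in R 4.3.3, on genes with at least 15 reads in all and 10 reads at the median library size in 2 libraries or more. A count model had been planned and was not run. Limma was fitted in its place to the read numbers counted here from the placements. Procedures were tested on simulated data in which each tissue difference was set alike in both protocols. Tissue differences that disagree between the protocols were not simulated. Every collagen is named, with values for those with at least 20 reads in all libraries or 100 in 1. Of each other list the 2 genes with the highest mean RPKM are named, except 1 that is not reported here, and further genes and values were chosen after they were seen. The members and all gene lists were chosen with earlier results of these data known. Alternatives were a smaller penalty, other scaling, start points, at most 1 mismatch, the last 1000 bases, no filter, other minimum reads and readable start positions, and limma-trend and ratios without antisense reads, both chosen after seeing the data.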

Additional observations from a re-analysis of the deposited data

Results flagged for a closer look

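Col14a1 was the collagen with at least 20 reads in every library whose tissue difference had opposite signs in the protocols, with a log2 value of -0.54 with cDNA fragmentation and 0.029 with rRNA depletion. The difference between the protocols was not tested, and the rRNA-depleted value lies within counting error of 0.

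Antisense reads were found above 3 reads at 4 collagens in rRNA-depleted libraries. They are part of the levels and tissue ratios, which hold both strands. Col10a1 had 10 in small intestine and 8 in colon, Col4a3 had 7 in small intestine, Col18a1 had 6 in small intestine and Col4a4 had 4 in small intestine. For Col10a1, Col4a3 and Col18a1 a gene on the other strand spans the exons concerned (Nt5dc1, C430014B12Rik and Slc19a1), while for Col4a4 none was annotated. Without antisense reads Col18a1 had a ratio of small intestine to colon of 0.80 (0.577 to 1.10), and Col10a1 was left with 0 and 2 reads.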

How the results depend on the processing

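The number of collagens called by the 3-fold rule was 0 (colon, cDNA fragmented), and became 2 with a penalty of 0.1 RPKM, 1 with start points and 1 in the last 1000 bases. Of all genes 7.72%, 3.43% and 4.24% were called under these settings. With rRNA depletion the number was 1 in colon, and became 2 with the smaller penalty and 6 in the last 1000 bases, beside 11.4% and 12.0% of all genes. In small intestine it became 1 with the smaller penalty and 1 with start points (Col6a4), beside 6.02% and 3.38%. With start points and in the last 1000 bases RPKM was also rescaled to the totals of those counts, with the penalty kept at 1 RPKM. limma called 2 collagens, Col8a1 and Col28a1, higher in colon under each setting run. Of these Col28a1, with 5, 81, 1 and 19 reads, passed the main filter only through the colon libraries, where it is high. Without the filter its limma adjusted p was 0.0360. Higher in small intestine limma called Col4a3 with median-of-ratios factors (limma adjusted p = 0.0386) and with start points (limma adjusted p = 0.0262). Of all genes 878 of 14163 were called higher in colon and 1038 in small intestine with the former, and 940 and 1081 of 13928 with the latter. The counts of Col4a3 hold antisense reads, 7 of 10 in rRNA-depleted small intestine. The log2 ratio of summed collagen reads was 0.83 with cDNA fragmentation, and became 0.43 with median-of-ratios scaling, 0.71 with start points and 0.57 in the last 1000 bases. With rRNA depletion 0.67 became 0.32, 0.54 and 1.22. The log2 difference between protocols was 1.73 in small intestine, 0.40 in the last 1000 bases and 1.17 with start points, and in colon 1.56, 1.05 and 1.01. Summed levels became 47.3, 84.5, 147 and 235 RPKM over readable start positions, and 100.1 and 160 RPKM with at most 1 mismatch in the rRNA-depleted libraries. Median-of-ratios scaling shifted log2 ratios of all genes alike, by -0.40 with cDNA fragmentation and -0.34 with rRNA depletion, which turned the sign of Col6a2 (-0.017), Col18a1 and Col8a2 in the former and of 5 of 15 collagens in the latter. Signs also turned in limma-trend for Col10a1 (0.048) and Col27a1 (-0.048), and in the last 1000 bases for Col18a1 (0.16) and Col8a2 (-0.028), and for ratios within 1 protocol in the last 1000 bases for Col8a2 (cDNA fragmented), Col14a1 and Col23a1 (rRNA-depleted) and, for Col14a1, with at most 1 mismatch and with exon placements only. The cause was not tested. Coverage results kept their direction under the alternatives run. DESeq2 was not run. The protocol term of the limma model already pairs the tissues within a protocol, and the labels give no replicate numbers for another pairing. Counting error limits members under 20 reads, and no replicate error can be given.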
